A study of Mus musculus with 9 samples.

Results

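The MS4A genes described here are a family of related membrane proteins, read in 3 subsets of mouse splenic dendritic cells (DC). The family members named were Ms4a1, Ms4a4a, Ms4a4b, Ms4a4c, Ms4a6b, Ms4a6c, Ms4a6d and Ms4a7, chosen by gene name on the basis of their measured counts in these same libraries, so their differences between subsets are given as a description, without a test. Of these 8 genes, 7 were among the 39179 genes of the count table, and all 7 were among the 13819 genes with enough reads for the fit. Ms4a4a was not analysed here. RNA was sequenced from CD8+ conventional DC (cDC1), CD8- conventional DC (cDC2) and plasmacytoid DC (pDC). All groups came from the spleens of untreated C57BL/6J mice at steady state, 6 to 12 weeks old and with no transgene or deletion. Each subset had 3 libraries, each from a pool of 15 to 17 mice, and libraries with the same replicate number carry the same date code in the labels. Cells expressing antigens that included CD3, Thy-1, Ly6G/Ly6C and the erythroid antigen TER-119 were depleted with antibodies before the subsets were sorted by flow cytometry on CD11c, CD45RA, CD8, CD11b and the NK cell marker CD49b.

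MS4A proteins cross the membrane several times and keep both ends inside the cell. Ms4a1 encodes CD20, a surface protein of B cells and the target of rituximab, and Ms4a2 encodes the beta chain of the high-affinity IgE receptor of mast cells and basophils. The Ms4a4 and Ms4a6 genes and Ms4a7 are known mainly from monocytes, macrophages and T cells, where several of the proteins sit next to signalling receptors and change how strongly these respond.

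Counts on genes summed to between 15806597 and 32453789 per library. Levels are given as TMM-normalized CPM, that is, counts relative to the library total after scaling with edgeR's TMM factors, and 3 counts correspond to between 0.0908 and 0.203 CPM. This floor covers counting error only. The summed cDC1 and pDC markers followed the labels, whereas the summed cDC2 markers separated cDC2 from cDC1 but not from pDC. The summed level of 5 cDC1 markers was 3520 to 3890 CPM in cDC1, with 121 to 181 in cDC2 and 572 to 696 in pDC, and that of 5 pDC markers was 10400 to 11300 CPM in pDC and at most 176 in the conventional DC. The 5 cDC2 markers summed to 1760 to 1910 CPM in cDC2, 94.6 to 158 in cDC1 and 1840 to 2000 in pDC. Among them, Itgam stood at 235 CPM in cDC2 against 11.6 in cDC1 and 11.3 in pDC, whereas Cd4 was highest in pDC (1370 CPM). In bulk RNA, a smaller number of cells of a type and less RNA per cell cannot be told apart.

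The members lie close together. The MS4A cluster spans chr19:10962293-11640851 (GRCm38, GENCODE M21 annotation), 678.6 kb with 21 family genes, of which 18 were in the count table. Ms4a1 (ENSMUSG00000024673, chr19:11249675-11266241) is on the minus strand. The other 7 members, its relatives, begin beyond it and fill 283.8 kb, from Ms4a7 (ENSMUSG00000024672, chr19:11321039-11336146, minus strand) to Ms4a6d (ENSMUSG00000024679, chr19:11586604-11604849, minus strand). Between these come, all on the plus strand, Ms4a4a (chr19:11375523-11392790), Ms4a4c (ENSMUSG00000024675, chr19:11404770-11427246), Ms4a4b (ENSMUSG00000056290, chr19:11443553-11467055), Ms4a6c (ENSMUSG00000079419, chr19:11469366-11482192) and Ms4a6b (ENSMUSG00000024677, chr19:11516512-11531256). The principal transcript of every member has 7 exons, and its coding region starts in exon 2 and ends in exon 7.

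The coding sequences show which members are close copies. Ms4a4b and Ms4a4c encode proteins that are identical at 84.5% of aligned residues, Ms4a6b and Ms4a6c at 72.9%, Ms4a6b and Ms4a6d at 71.3%, and Ms4a6c and Ms4a6d at 65.0%. Ms4a1 is distant from all of them, with 24.4% to 31.7% identity to the other 7 proteins. The first 90 coding bases are shown because they let the copies be read against each other, beginning with the start codon in exon 2. Capitals mark positions at which the genes of a group differ, 7 of 90 for the Ms4a4 pair and 19 of 90 for the Ms4a6 genes. Ms4a1 is shown for reference, without capitals.
Ms4a1 (chr19:11258732-11258821, minus strand): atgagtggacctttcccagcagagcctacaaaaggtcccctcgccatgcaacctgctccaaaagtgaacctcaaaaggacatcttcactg
Ms4a4b (chr19:11449919-11450008, plus strand): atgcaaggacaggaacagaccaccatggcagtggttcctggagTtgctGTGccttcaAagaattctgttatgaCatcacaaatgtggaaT
Ms4a4c (chr19:11414817-11414906, plus strand): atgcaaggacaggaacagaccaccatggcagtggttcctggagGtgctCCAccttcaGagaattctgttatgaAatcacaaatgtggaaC
Ms4a6b (chr19:11520339-11520428, plus strand): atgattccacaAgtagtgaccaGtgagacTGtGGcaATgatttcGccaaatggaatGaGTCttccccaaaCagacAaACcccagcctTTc
Ms4a6c (chr19:11471105-11471194, plus strand): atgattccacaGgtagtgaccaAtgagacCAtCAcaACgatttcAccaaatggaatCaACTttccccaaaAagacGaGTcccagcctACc
Ms4a6d (chr19:11603203-11603292, minus strand): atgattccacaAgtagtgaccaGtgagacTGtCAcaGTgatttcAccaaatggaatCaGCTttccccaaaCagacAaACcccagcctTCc

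These copies can still be told apart by most reads of the length used here. A 75-base window of Ms4a4c matched Ms4a4b exactly at 3.78% of its positions, and the share of windows found in another gene on the same strand was 1.18% for Ms4a4b, 0.63% for Ms4a6b, 2.88% for Ms4a6c and 0.41% for Ms4a6d. No window of Ms4a1 or Ms4a7 was found elsewhere. Ms4a6c differs in that an antisense transcript, BE692007, covers 53.07% of its exon bases. Whether counting used the strand is not given in the sources used here, so reads of the 2 transcripts cannot be told apart for Ms4a6c if it did not.

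Promoter sequences were at hand for 6 of the 8 members (RefSeq, GRCm38.p6). Over the 250 bases before the start site, Ms4a6b and Ms4a6c were identical at 85.1% of 175 aligned bases and Ms4a4b and Ms4a4c at 79.1% of 235, whereas the other 18 pairs of windows lay between 54.8% and 64.3%. These 4 windows are printed because the pairs are close copies and yet their transcripts, described later, stood at different levels. Capitals mark matches to the letters GAGGAA (core of PU.1 sites), AGGAAGT (core of ETS sites) and GAAANNGAA (interferon response elements), searched on both strands.
Ms4a4b (chr19:11443308-11443557, plus strand): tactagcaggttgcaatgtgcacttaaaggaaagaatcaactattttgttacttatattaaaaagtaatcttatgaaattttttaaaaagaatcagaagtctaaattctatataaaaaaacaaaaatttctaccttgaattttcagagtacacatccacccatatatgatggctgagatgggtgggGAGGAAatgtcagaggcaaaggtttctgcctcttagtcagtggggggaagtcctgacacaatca
Ms4a4c (chr19:11407411-11407660, plus strand): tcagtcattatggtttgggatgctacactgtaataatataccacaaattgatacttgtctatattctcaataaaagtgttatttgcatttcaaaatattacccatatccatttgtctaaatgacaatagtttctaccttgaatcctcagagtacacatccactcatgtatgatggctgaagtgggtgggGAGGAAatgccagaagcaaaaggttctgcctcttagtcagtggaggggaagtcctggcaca
Ms4a6b (chr19:11518309-11518558, plus strand): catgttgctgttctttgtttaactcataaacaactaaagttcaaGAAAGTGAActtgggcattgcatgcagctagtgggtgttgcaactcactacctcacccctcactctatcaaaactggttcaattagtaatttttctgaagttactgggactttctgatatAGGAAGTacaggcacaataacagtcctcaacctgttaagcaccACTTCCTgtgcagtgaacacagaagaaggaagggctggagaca
Ms4a6c (chr19:11469118-11469367, plus strand): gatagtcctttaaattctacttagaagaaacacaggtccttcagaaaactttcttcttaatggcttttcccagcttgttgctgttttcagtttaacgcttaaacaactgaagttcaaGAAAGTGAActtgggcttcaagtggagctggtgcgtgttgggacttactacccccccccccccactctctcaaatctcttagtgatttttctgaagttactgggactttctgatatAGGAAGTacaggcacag

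The Ms4a4 pair shared a GAGGAA match, which begins 64 bases before the start site in Ms4a4b and 61 in Ms4a4c. The Ms4a6 pair shared GAAAGTGAA, which begins 206 bases before the start site in Ms4a6b and 133 in Ms4a6c, and an AGGAAGT match, while Ms4a6b had a further AGGAAGT match on the other strand. Each of the pair of Ms4a7 windows also held a GAAANNGAA match, so 4 of the 7 member windows did. These windows are not independent, being both windows of Ms4a7 and the close copies of Ms4a6b and Ms4a6c. The motifs were also chosen after the promoters had been read. Nothing is therefore read from these matches against the shares that follow. Among all 32851 promoter windows of this length, 23.3% held GAGGAA, 7.69% AGGAAGT and 7.13% GAAANNGAA. No member window held GGAANNGAA (ETS-IRF composite sites), which was in 6.99% of all windows. A match is a match of letters and was not read as a binding site.

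Ms4a1 was highest in cDC1 and scarce in pDC. In cDC1, the 3 libraries held 48.8, 49.9 and 44.2 CPM of Ms4a1, in cDC2 28.7, 26.8 and 32.2, and in pDC 0.848, 1.06 and 1.47. The 3 groups did not overlap, with cDC1 highest and pDC lowest. The pDC values rested on 28, 21 and 25 reads. Ms4a1 in pDC was 43.3-fold below cDC1 (log2 fold change -5.44, SE 0.208) and 26.6-fold below cDC2 (log2 fold change -4.73, SE 0.204). Between the conventional subsets it was 1.63-fold lower in cDC2 (log2 fold change -0.70, SE 0.161), and it was the only member lower there than in cDC1.

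B cells are the best known source of CD20, so B cell markers are given beside it. Of 12 such genes, 9 were tested, and the summed level was 619 to 850 CPM in cDC1, with 369 to 411 in cDC2 and 371 to 584 in pDC, most of it in cDC1 from Cd24a, which DC express. Pax5, the B lineage regulator, had at most 8 reads in any library, and Cd79a, a chain of the B cell receptor complex, averaged 0.222 CPM in cDC1, with 0.380 in cDC2 and 2.35 in pDC. The pDC level of Cd79a was above that of cDC1 (edgeR's quasi-likelihood test, Benjamini-Hochberg adjusted p = 0.0273) and overlapped that of cDC2 (adjusted p = 0.0643). These tests rest on few reads, 84, 81 and 7 in pDC, with 7, 5 and 3 in cDC1 and 16, 18 and 0 in cDC2. The pDC libraries, where Cd79a was highest, helped it into the fit. The list as a whole had no single direction. Of the 9 tested, 6 rose and 3 fell from cDC1 to pDC (all genes tested, 24.3% higher and 24.4% lower), 5 rose and 2 fell from cDC1 to cDC2 (12.7% and 11.7%), and 2 rose and 4 fell from cDC2 to pDC (22.5% and 23.3%). Bank1, a scaffold protein of B cell receptor signalling, had its lowest mean in pDC, at 9.81 CPM in cDC1, with 24.7 in cDC2 and 1.65 in pDC. Higher levels were reached by Cd22 in cDC2 and by Fcrla in pDC. Cd22 averaged 18.3 CPM in cDC1, with 195 in cDC2 and 9.22 in pDC. Fcrla averaged 43.6 CPM in cDC1, with 2.77 in cDC2 and 267 in pDC. The part of B cells in the level of Ms4a1 was not tested.

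**Figure D1:**
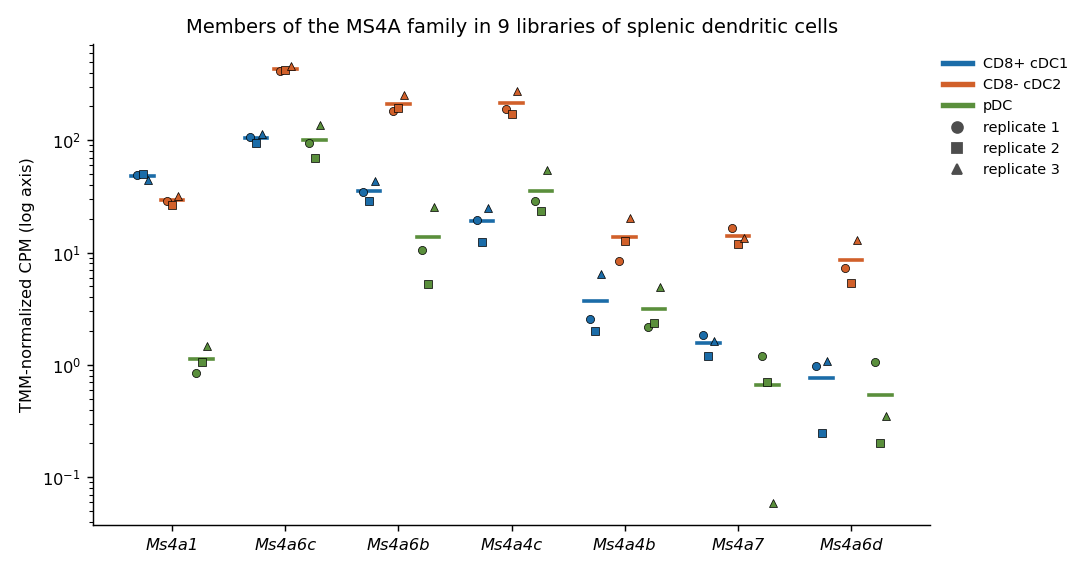
TMM-normalized CPM (log axis) of the 7 members in the table, by library. Colours are subsets, symbols are replicates and bars are means of 3 libraries. Ms4a1 is highest in cDC1 (44.2 to 49.9 CPM) and lowest in pDC (0.848 to 1.47), while the other 6 are highest in cDC2.

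The Ms4a6 genes were highest in cDC2. Ms4a6c was the most abundant member, in CPM and per length, at 107, 94.7 and 113 CPM in cDC1, with 411, 426 and 460 in cDC2 and 95.5, 68.9 and 137 in pDC. The cDC2 libraries stood apart from the other 6, whereas cDC1 and pDC overlapped. Ms4a6c was 4.13-fold higher in cDC2 than in cDC1 (log2 fold change 2.04, SE 0.215) and 4.31-fold lower in pDC than in cDC2 (log2 fold change -2.11, SE 0.215), and the pDC to cDC1 difference was -0.06 (log2, SE 0.207).

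Ms4a6b, its close copy, stood at 34.7, 29.0 and 43.2 CPM in cDC1, with 184, 193 and 255 in cDC2 and 10.5, 5.27 and 25.7 in pDC. Here the 3 subsets did not overlap, and pDC were lowest. The log2 fold change of Ms4a6b was 2.57 (SE 0.459) from cDC1 to cDC2, -3.94 (SE 0.491) from cDC2 to pDC and -1.37 (SE 0.452) from cDC1 to pDC. Without pDC replicate 3, the differences of pDC were -4.71 from cDC2 and -2.15 from cDC1. Ms4a6b and Ms4a6c thus shared the high level in cDC2, and only Ms4a6b was lower in every pDC library than in every cDC1 library.

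Ms4a6d was scarce. It held 0.984, 0.250 and 1.08 CPM in cDC1, with 7.27, 5.36 and 13.0 in cDC2 and 1.06, 0.203 and 0.353 in pDC. All cDC2 libraries were above all others, and cDC1 and pDC overlapped. Ms4a6d was 11.2-fold higher in cDC2 than in cDC1 (log2 fold change 3.48, SE 0.689) and 14.8-fold lower in pDC than in cDC2 (log2 fold change -3.89, SE 0.701). Only in cDC2 did all of its libraries have at least 10 reads, so it entered the fit through the subset in which it was high. The pDC to cDC1 difference of -0.41 (log2, SE 0.706) rested on 35, 4 and 6 reads in pDC, and was -1.45 without pDC replicate 1 and -0.85 without cDC1 replicate 2. Without pDC replicate 1, the difference from cDC2 was -4.93.

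Both Ms4a4 genes were highest in cDC2, at different levels. Ms4a4c, a gene raised by interferon in several cell types, stood at 19.7, 12.5 and 25.1 CPM in cDC1, with 189, 173 and 277 in cDC2 and 28.8, 23.5 and 54.3 in pDC. The cDC2 libraries were again apart from the rest. Ms4a4c was 11.2-fold higher in cDC2 than in cDC1 (log2 fold change 3.48, SE 0.375) and 6.01-fold lower in pDC than in cDC2 (log2 fold change -2.59, SE 0.359). It was the only member with a positive pDC to cDC1 difference (log2 0.90, SE 0.349, higher in 3 of 3 same-numbered pairs), although those libraries overlapped.

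Ms4a4b, known from T cells, where its protein associates with the co-stimulatory receptor GITR, held 2.55, 2.00 and 6.50 CPM in cDC1, with 8.48, 12.7 and 20.2 in cDC2 and 2.18, 2.38 and 4.89 in pDC. Replicate 3 was the highest library of each subset. The log2 fold change of Ms4a4b was 1.93 (SE 0.521) from cDC1 to cDC2 and -2.14 (SE 0.525) from cDC2 to pDC, with no overlap in either. From cDC1 to pDC it was -0.21 (SE 0.524). Without cDC1 replicate 3, the differences from cDC1 were 2.56 for cDC2 and 0.41 for pDC.

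Ms4a7, a transcript of macrophages, stood at 1.86, 1.21 and 1.63 CPM in cDC1, with 16.4, 11.9 and 13.6 in cDC2 and 1.21, 0.710 and 0.0589 in pDC. The pDC values came from 40, 14 and 1 reads, the last of them under the floor of 3 counts. Ms4a7 was 8.89-fold higher in cDC2 than in cDC1 (log2 fold change 3.15, SE 0.559) and 19.6-fold lower in pDC than in cDC2 (log2 fold change -4.29, SE 0.598). Its pDC to cDC1 difference was -1.14 (log2, SE 0.585), from -1.96 without pDC replicate 1 to -0.66 without pDC replicate 3, and without pDC replicate 1 the difference from cDC2 was -5.11.

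Counted over the 7 members, pDC libraries lay below all cDC2 libraries in 7 genes, and cDC2 lay above all cDC1 libraries in 6 and below them in 1, Ms4a1. Between pDC and cDC1, 2 members were lower in pDC without overlap (Ms4a1 and Ms4a6b), none was higher and 5 overlapped. Of all genes tested, 28.5% were lower and 27.6% higher in pDC than in cDC2 without overlap, 22.7% were higher and 21.8% lower in cDC2 than in cDC1, and 29.6% were lower and 29.1% higher in pDC than in cDC1. Nothing is read from the members' counts against these shares, because the members were selected on the same values. The median log2 fold change of the 7 was -3.89 from cDC2 to pDC, 2.57 from cDC1 to cDC2 and -0.41 from cDC1 to pDC, beside -0.01, 0.03 and 0.02 over all genes tested.

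**Figure D2:**
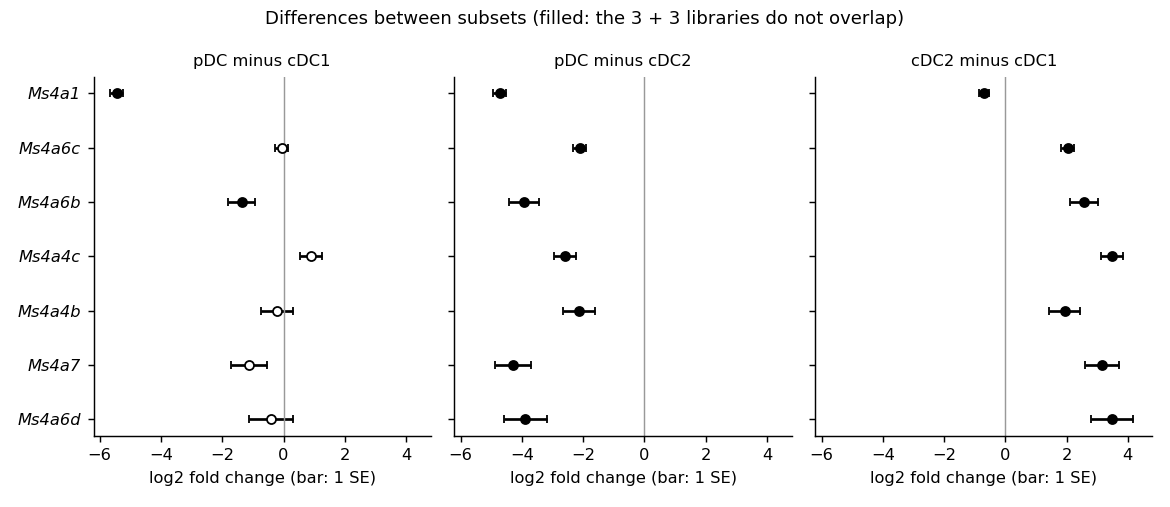
Log2 fold change of each member in the 3 comparisons of subsets, with bars of 1 SE (9 libraries in the fit). Filled points are members whose libraries do not overlap. All 7 points lie below 0 for pDC minus cDC2, and Ms4a1 is the only point below 0 for cDC2 minus cDC1 (-0.70).

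The subsets differed in the make-up of their MS4A transcripts. The summed level of the 7 members was 213 ± 22.5 CPM (SD, n = 3) in cDC1, with 922 ± 128 in cDC2 and 155 ± 61.9 in pDC. Ms4a1 gave 22.6 ± 3.75% of this sum for cDC1, 3.19 ± 0.197% for cDC2 and 0.768 ± 0.237% for pDC, so its share had the same order as its level. Ms4a6c gave 49.2 ± 0.964%, 47.2 ± 3.84% and 65.6 ± 3.91%. It was the largest contributor in all 9 libraries.

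The ratio of Ms4a1 to each of its 6 measured relatives within a library was higher in every cDC1 library than in every cDC2 library, and for 3 of them it also separated cDC2 from pDC. It is given in CPM, not per length, since transcript length is the same in every library. Against Ms4a4c the log2 ratio was 1.37 ± 0.598 in cDC1, while in cDC2 it was -2.84 ± 0.229 and in pDC -4.92 ± 0.399. Against Ms4a6c the log2 ratio was -1.13 ± 0.215 in cDC1, with -3.89 ± 0.0866 in cDC2 and -6.46 ± 0.406 in pDC. Against Ms4a4b it was 3.89 ± 0.994 in cDC1, with 1.17 ± 0.551 in cDC2 and -1.42 ± 0.289 in pDC. The groups of 3 ratios did not overlap for these 3 relatives. For the other 3, cDC2 and pDC overlapped. Against Ms4a6b the ratio was 0.43 ± 0.378 in cDC1, with -2.84 ± 0.155 in cDC2 and -3.36 ± 0.942 in pDC. Against Ms4a6d it was 6.21 ± 1.25, 1.87 ± 0.514 and 1.38 ± 1.48, and against Ms4a7 4.95 ± 0.367, 1.07 ± 0.231 and 1.57 ± 2.71, with pDC spread from -0.51 to 4.64.

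Levels between genes are compared per kilobase of the principal transcript. In cDC1, Ms4a6c stood at 56.9 ± 5.04 CPM per kb, Ms4a6b at 21.1 ± 4.23, Ms4a1 at 15.5 ± 0.993 and Ms4a4c at 11.1 ± 3.67, with Ms4a7, Ms4a4b and Ms4a6d between 0.545 and 1.17. Among these, the Ms4a7, Ms4a4b and Ms4a6d levels were within about 1 SD of their neighbours. In cDC2, Ms4a6c led at 235 ± 13.7 CPM per kb, Ms4a6b and Ms4a4c could not be ranked (125 ± 22.9 and 124 ± 32.5), and neither could Ms4a7 and Ms4a1 (10.5 ± 1.69 and 9.51 ± 0.895). Ms4a6d (6.03 ± 2.81) and Ms4a4b (2.91 ± 1.25) came last.

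In pDC the order per kilobase was Ms4a6c (54.5 ± 18.5), Ms4a4c (20.6 ± 9.57) and Ms4a6b (8.21 ± 6.30). Ms4a4b, Ms4a7, Ms4a6d and Ms4a1 followed at 0.663 to 0.367, all within their spread. The order depended on the transcript length. With the length of all annotated exons, Ms4a6b in cDC2 was 47.1 CPM per kb against 122 for Ms4a4c, and Ms4a1 exceeded Ms4a7 (4.73 against 3.13).

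Some genes used as markers of other cells moved with some members, and lists of such genes are given beside the members. Of 16 macrophage and monocyte markers, 11 rose from cDC1 to cDC2 and none fell (edgeR's quasi-likelihood test, Benjamini-Hochberg adjusted p under 0.05). The background was 12.7% of genes tested higher and 11.7% lower. The summed level of the list was 486 to 758 CPM in cDC1, with 2100 to 2940 in cDC2 and 2320 to 3630 in pDC, and no marker was at 0 throughout a subset. The pDC sum came mostly from Ly6c2 (2230 CPM), a surface antigen that pDC carry. Between pDC and cDC2, 5 of the 16 fell and 2 rose, with a background of 23.3% lower and 22.5% higher. Between pDC and cDC1, 2 rose and none fell, with a background of 24.3% higher and 24.4% lower.

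Emr1 (now Adgre1), which encodes F4/80, stood at 17.7, 6.88 and 17.3 CPM in cDC1, with 334, 308 and 390 in cDC2 and 17.9, 4.16 and 20 in pDC. Csf1r, the receptor for macrophage colony-stimulating factor, held 73.6, 41.8 and 76.7 CPM in cDC1, with 401, 329 and 383 in cDC2 and 70.4, 20.4 and 89.1 in pDC. C1qa, a complement gene of tissue macrophages, held 11.4, 3.79 and 13.8 CPM in cDC1, with 61.1, 28.0 and 38.6 in cDC2 and 16.8, 4.05 and 25.0 in pDC. Replicate 2 was the lowest library of cDC1 and of pDC for each of these markers, as it was for Ms4a6b, Ms4a6c, Ms4a4c and Ms4a6d. For Ms4a7 it was lowest in cDC1 but not in pDC, where replicate 3 was. Emr1, Csf1r and C1qa were among the listed genes that rose from cDC1 to cDC2, by 24.7-, 5.8- and 4.43-fold. Not every gene of the list did. The part of macrophages or monocytes in the members' levels was not tested.

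The summed level of NK cell markers was highest in replicate 3 of each subset, as Ms4a4b was, though not every marker was. The sum over 8 markers was 15.5, 10.3 and 33.2 CPM in cDC1, with 24.9, 40.0 and 97.2 in cDC2 and 20.9, 12.0 and 48.4 in pDC, and no marker was at 0 throughout a subset. All 8 were tested, and 1 rose from cDC1 to cDC2 (all genes tested, 12.7% higher and 11.7% lower). From cDC2 to pDC, 2 fell (all genes, 22.5% higher and 23.3% lower). None passed the test between cDC1 and pDC (all genes, 24.3% higher and 24.4% lower). Gzma, a granzyme of cytotoxic lymphocytes, held 6.30, 4.09 and 15.0 CPM in cDC1, with 10, 10.6 and 40.7 in cDC2 and 9.53, 4.87 and 25.3 in pDC. The T cell receptor genes were low, and Cd3g averaged 0.351 CPM in cDC1, with 1.84 in cDC2 and 0.416 in pDC. The summed level of 10 T cell markers was 23.3 to 34.8 CPM in cDC1, with 49.4 to 68.5 in cDC2 and 71.5 to 89.7 in pDC. The pDC sum came mostly from Cd28 (mean 59.1 CPM, with 0.635 in cDC1 and 1.06 in cDC2). Of the 10 markers, 8 were tested and 1 rose from cDC1 to cDC2 (Cd5). From cDC2 to pDC, 2 rose and 3 fell, and from cDC1 to pDC, 2 rose and 1 fell. The shares of all genes tested are those given for the NK cell markers. The part of NK or T cells in the level of Ms4a4b was not tested.

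Neutrophil markers summed to at most 85.6 CPM in any library, and basophil and mast cell markers to at most 5.02. Of 6 neutrophil markers tested, 1 rose from cDC1 to cDC2 (all genes tested, 12.7% higher and 11.7% lower). From cDC2 to pDC, 1 fell (all genes, 22.5% higher and 23.3% lower). None passed the test between pDC and cDC1 (all genes, 24.3% higher and 24.4% lower). None of the 4 basophil and mast cell markers tested passed the test in any comparison. In the B cell list, 6 of the 9 tested rose and 3 fell from cDC1 to pDC, and 2 rose and 4 fell from cDC2 to pDC. From cDC1 to cDC2, 5 of that list rose and 2 fell. The same shares of all genes tested apply to these comparisons.

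**Figure D3:**
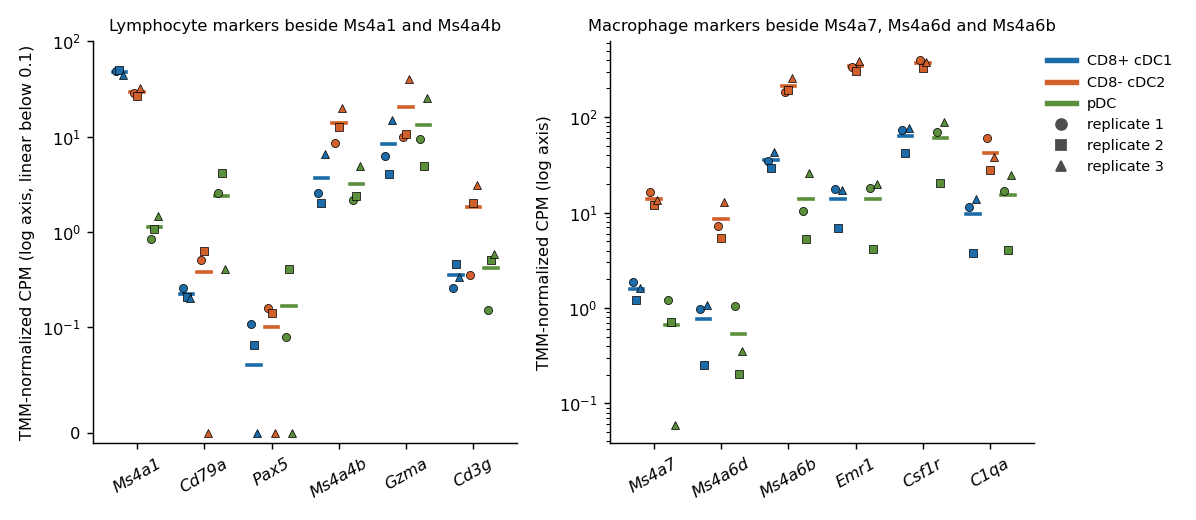
TMM-normalized CPM by library for members and markers of other cells. Colours are subsets, symbols are replicates and bars are means of 3 libraries. The left panel has a log axis that is linear below 0.1 and the right panel a log axis. Ms4a1 reaches 49.9 CPM in cDC1, where Pax5 does not pass 0.109, and Ms4a4b and Gzma are both highest in replicate 3 of each subset.

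Several relatives also varied together. Over the 9 libraries, Pearson's r of log2(TMM CPM + 1) was between 0.79 and 0.955 for the 15 pairs among the 6 measured relatives, and between 0.153 and 0.67 for the 6 pairs with Ms4a1. These values are a description over 3 subsets of 3 libraries, and the points share the subset and the replicate number. After the mean of each subset was taken away, Ms4a6b and Ms4a6c still moved together (r = 0.993), as did Ms4a4c with Ms4a6b (0.886) and Ms4a4b with Ms4a4c (0.836). Ms4a7 did not, with values from -0.694 to -0.376 against every member but Ms4a6d (0.473). Ms4a6d moved less closely with the Ms4a4 genes and the other Ms4a6 genes, at 0.3 to 0.534, and had -0.0315 with Ms4a1. In pDC, Ms4a7 rested on 40, 14 and 1 reads and Ms4a6d on 35, 4 and 6. Pairs of low identity had values as high as close copies. Ms4a4c and Ms4a6c had r = 0.955 with 31.0% protein identity, and Ms4a4b and Ms4a4c had r = 0.91 with 84.5%.

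**Figure D4:**
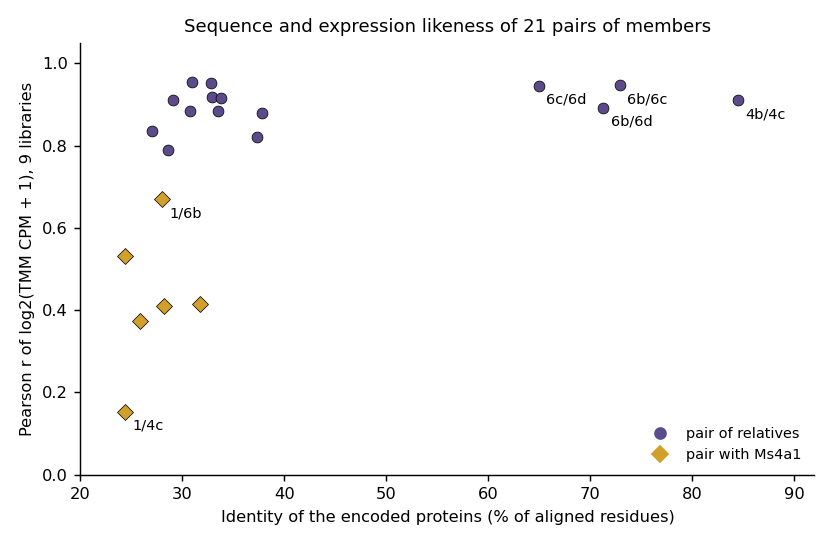
Pearson r of log2(TMM CPM + 1) over 9 libraries against the identity of the encoded proteins (% of aligned residues), for 21 pairs of members. Circles are pairs of relatives and diamonds pairs with Ms4a1. All 15 circles are at 0.79 or above at identities from 27.0% to 84.5%, and all 6 diamonds are at 0.67 or below.

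Among 9621 other genes with a mean of at least 10 CPM in their highest subset, the closest in pattern to Ms4a1 were N4bp2l1 (r = 0.9985), Nabp1 (0.998), Anxa6 (0.997), Cdk14 (0.9961) and Pik3cb (0.9958). All 5 were highest in cDC1 and lowest in pDC. Anxa6, an annexin, went from 1310 CPM in cDC1 to 1070 in cDC2 and 301 in pDC. Ms4a4b was closest to Osgin2 (0.9923), the chemokine gene Ccl3 (0.9882) and 9430015G10Rik (0.9782). Ms4a4c was closest to Cst7 (0.994), the antiviral gene Oas1a (0.9931) and Klri2 (0.9911), of which Oas1a stood at 6.98 ± 3.31 CPM for cDC1, 78.5 ± 22.6 for cDC2 and 13.9 ± 4.88 for pDC.

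For the Ms4a6 genes and Ms4a7, the nearest genes were likewise highest in cDC2. They were Ap1s2 (0.9956), Tstd3 and Fem1c (both 0.9934) for Ms4a6b, Sirpb1c (0.9965), Crlf3 (0.9918) and Gm15987 (0.9917) for Ms4a6c, and Frmd8 (0.9918), Ptplad2 (0.9885) and Gga2 (0.9859) for Ms4a6d. Ms4a7 was nearest to Dtx1 (0.9951), Gm6166 (0.9936) and Mapk11 (0.9901). Dtx1, which encodes an E3 ligase of the Notch pathway, stood at 472 ± 23.1 CPM in cDC2 against 11.5 ± 4.62 in cDC1 and 2.78 ± 2.16 in pDC. Each r is over the same 9 libraries and only ranks genes by likeness.

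The rest of the family genes in the count table were nearly silent, apart from a related pair elsewhere in the genome. Ms4a12 and Ms4a14 of the cluster were not in that table, so nothing is known of their levels here. Tmem176a and Tmem176b, which encode MS4A-like membrane proteins, were not members of the choice above. Tmem176b stood at 178, 113 and 168 CPM in cDC1, with 763, 603 and 674 in cDC2 and 52.6, 32.3 and 48.7 in pDC, so the subsets did not overlap. It rose from cDC1 to cDC2 (log2 fold change 2.15, SE 0.221, edgeR's quasi-likelihood test, Benjamini-Hochberg adjusted p = 9.17e-05) and fell to pDC from cDC2 (-3.93, SE 0.239, adjusted p = 9.27e-07) and from cDC1 (-1.78, SE 0.220, adjusted p = 0.000103). Tmem176a followed the same order, at 89.1 ± 23.1 CPM in cDC1, with 348 ± 52.1 in cDC2 and 18.5 ± 5.71 in pDC (adjusted p = 7.86e-05 or lower for pDC against either conventional subset and 0.000439 for cDC2 against cDC1). This is the order of Ms4a6b.

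Among the other family genes of the cluster, Ms4a10 had 17, 15 and 20 reads in cDC1, with 3, 1 and 0 in cDC2 and none in pDC, so that cDC1 alone was above the floor. Against the mean floor of 3 counts per library, its level in pDC was at least 6.18-fold below that of cDC1, and cDC2 averaged 0.0435 CPM against 0.866 in cDC1. It entered the fit only through cDC1, where it was high, so these differences are given as a description. Ms4a3 and Ms4a8a passed the filter and no adjusted p of theirs was under 0.05, with means of at most 0.562 CPM. Ms4a2 had at most 5 reads in any library, Ms4a4d at most 6 and Ms4a15 at most 1, and Ms4a5, Ms4a13 and Ms4a18 had none. Of the 11 genes on this list, Tmem176a and Tmem176b included, 5 were tested. Of these, 2 rose and 1 fell from cDC1 to cDC2 (all genes tested, 12.7% higher and 11.7% lower). From cDC2 to pDC 2 fell (all genes, 23.3% lower), and from cDC1 to pDC 3 fell (24.4% lower). The medians of their log2 fold changes were 1.97, -3.36 and -1.78. Ms4a10 is counted among those that fell from cDC1 and enters the medians. As it entered the fit only through cDC1, its falls are no support, and nothing is read from these counts.

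Some neighbouring genes rose and others fell. Olfactory receptor genes left aside, 20 protein-coding genes lie within or up to 300 kb beyond the cluster, and 13 of them were tested. From cDC1 to cDC2, 2 rose and 5 fell, with a median log2 fold change of -0.54 (all genes tested, 12.7% higher, 11.7% lower and a median of 0.03). From cDC2 to pDC, 1 rose and 6 fell, with a median of -0.24 (all genes, 22.5%, 23.3% and -0.01). From cDC1 to pDC, 1 rose and 8 fell, with a median of -1.19 (all genes, 24.3%, 24.4% and 0.02). Zp1, counted in this last fall, entered the fit only through cDC1 (19, 11 and 11 reads), where it was high. Gpr44 and Tmem132a, counted in the falls to pDC from either subset, entered it through the conventional subsets. Their falls are no support, and nothing is read from the counts of falls to pDC.

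The gene next to Ms4a10 at the near end, Ccdc86, fell from 59.9 ± 14.9 CPM in cDC1 to 22.4 ± 0.650 in cDC2 (adjusted p = 0.00162) and overlaps Gpr44 (now Ptgdr2), a prostaglandin receptor, at its tail. Gpr44 stood at 2.26 ± 0.244 CPM in cDC1, with 2.58 ± 0.805 in cDC2 and 0.0202 ± 0.0350 in pDC, under the floor (2, 0 and 0 reads). As Gpr44 entered the fit only through the conventional subsets, where it was high, its differences from pDC are given as a description. Slc15a3, a lysosomal transporter of histidine and peptides, was the riser in pDC, from 15.2 ± 4.70 CPM in cDC1 and 47.7 ± 4.0 in cDC2 to 111 ± 7.07 (adjusted p = 2.47e-06 and 0.000583). Its end overlaps that of Tmem132a, which went the other way and stood at 0.320 ± 0.304 CPM in pDC against 11.7 ± 2.33 in cDC1. Tmem132a had 20, 7 and 0 reads in pDC and entered the fit through the conventional subsets, so this too is a description. Beyond the far end, the genes nearest to Ms4a3 had few or no reads. The first tested gene there, Mrpl16, fell from cDC1 to cDC2 (log2 fold change -0.59, SE 0.165, adjusted p = 0.0261), as did Stx3, a syntaxin of vesicle fusion (-1.84, SE 0.208, adjusted p = 0.000163). These are Benjamini-Hochberg adjusted p-values of edgeR's quasi-likelihood fit.

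**Figure D5:**
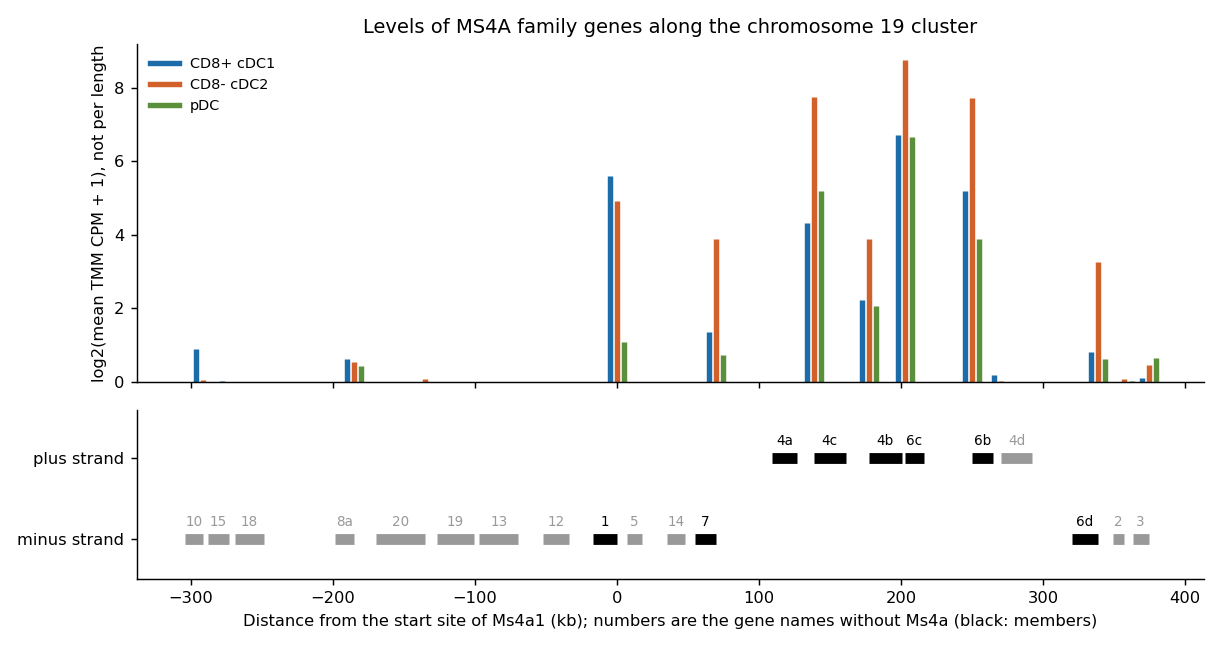
Family genes along the chromosome 19 cluster, by distance (kb) from the start site of Ms4a1. Bars are log2(mean TMM CPM + 1) of 3 libraries per subset, not per length, to be compared within a gene, and boxes below are the genes on each strand (members in black). The transcribed members lie at and beyond Ms4a1 on one side, and Ms4a10 at the other end reaches 0.866 CPM in cDC1.

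Genes whose products work with MS4A proteins included some that rose and some that fell. Of 12 such genes, 11 were tested. From cDC1 to pDC, 3 rose and 6 fell, with a median log2 fold change of -0.76 (all genes tested, 24.3% higher, 24.4% lower and a median of 0.02). From cDC2 to pDC, 2 rose and 8 fell, with a median of -0.74 (all genes, 22.5%, 23.3% and -0.01), and from cDC1 to cDC2, 6 rose and 2 fell, with a median of 0.46 (all genes, 12.7%, 11.7% and 0.03). The list of receptors was led by Clec7a, which encodes dectin-1, a receptor for fungal glucans that associates with MS4A4A in macrophages. Clec7a stood at 26, 20.8 and 29.5 CPM in cDC1, with 167, 138 and 163 in cDC2 and 8.60, 3.19 and 9.66 in pDC. No subset overlapped another, and all 3 differences passed the test (log2 fold change 2.62, SE 0.324, adjusted p = 0.000281 from cDC1 to cDC2, and -4.45, SE 0.356, adjusted p = 5.66e-06 from cDC2 to pDC, edgeR's quasi-likelihood test, Benjamini-Hochberg adjustment).

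Kit, the stem cell factor receptor, and Cd40, the co-stimulatory receptor that neighbours CD20 on B cells, were high in both conventional subsets. Kit stood at 308 ± 19.4 CPM for cDC1, 449 ± 5.06 for cDC2 and 26 ± 5.05 for pDC, and Cd40 at 73.0 ± 10.4, 92.3 ± 7.14 and 8.51 ± 2.20. The tetraspanin genes Cd9 and Cd81 were highest in cDC1 and lowest in pDC, as Ms4a1 was. Cd9 stood at 289 ± 60.4, 152 ± 23.3 and 5.85 ± 1.23 CPM, and was lower in pDC than in cDC1 (log2 fold change -5.61, SE 0.233, edgeR adjusted p = 9.94e-08). Cd81 stood at 380 ± 20.3, 89.3 ± 4.71 and 8.34 ± 4.95 CPM (cDC2 against cDC1, edgeR adjusted p = 0.00296).

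Other partners went the other way. Cd37, a tetraspanin of lymphocytes, was at 385 ± 8.57 CPM in pDC, 84.3 ± 4.49 in cDC1 and 78.4 ± 12.7 in cDC2 (edgeR adjusted p = 6.33e-07 for pDC against cDC1). Fcer1g, the signalling chain shared by Fc receptors, was at 55.1 ± 19.8 CPM in cDC1, with 382 ± 51.9 in cDC2 and 427 ± 80.7 in pDC (edgeR adjusted p = 5e-05 for cDC2 against cDC1), and its cDC2 and pDC libraries overlapped (log2 difference 0.16, adjusted p = 0.626). Syk, the kinase it recruits, stood at 130 ± 26.8 CPM in cDC1, with 323 ± 25.6 in cDC2 and 492 ± 64.6 in pDC (edgeR adjusted p = 0.0003 for cDC2 against cDC1 and 0.0113 for pDC against cDC2).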

How the data were processed

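RNA was sequenced from 3 libraries each of cDC1, cDC2 and pDC (TruSeq Stranded mRNA, single 75-base reads). The authors deposited raw read counts per gene for the 9 libraries, without normalization. The submitters' processing notes name STAR, SAMtools, featureCounts and MultiQC and the build mm10, with no order. The strand setting, the treatment of reads that match several places and the annotation release are not given in the sources used here. No column of per-sample values was left out.

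Groups and replicate numbers came from the labels. Counts were fitted in R 4.3.3 with edgeR 4.0.16: filterByExpr with a minimum count of 10 (13819 of 39179 genes kept), TMM factors, all 9 libraries with the subset as the only term, the quasi-likelihood test and Benjamini-Hochberg adjustment over all genes tested, at a threshold of 0.05. The fit was tested on simulated data. For the members, the fold change and its SE are given without a p-value. The members and the lists of other genes were chosen with earlier results of these data known. Replicates are pools of mice whose labels carry different date codes, and the labels do not say what the dates refer to. Nothing else says that they are independent.

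Libraries with the same number share a date code. The deviations of log2(CPM + 1) from the subset means correlated in all 9 same-number pairs of libraries (r from 0.266 to 0.543, mean 0.403). The 18 other pairs had a mean r of -0.179. Centring on the subset means pushes this value below 0 when same-number pairs correlate, so it is no separate evidence. From the same-number pairs, the numbers were taken to pair the samples, and a fit with the number as a block was an alternative. The others were DESeq2 1.42.0, library size only, upper quartile normalization, no filter on low counts, a filter of 10 counts or more in all libraries, separate fits of the 6 libraries compared, and each library left out.

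The genes named were all members, family genes with over 3 counts in any library, Tmem176a, Tmem176b, at most 8 neighbours and 8 partner genes with the largest changes, at most 4 genes per marker list, and the 5 (Ms4a1) or 3 (other members) nearest in pattern. Ms4a5, Ms4a13, Ms4a15 and Ms4a18, which have few or no reads, fall outside this rule and were named after their values were seen, as were AW112010, 1700017D01Rik and 1700025F22Rik. Cd22 and Fcrla are named beyond the 4 genes of the B cell list, also after their values were seen. Gene models, lengths, coding sequences and shared windows came from GENCODE M21 on GRCm38, in which 37607 listed genes (95.99%) have a model. Protein identity came from global alignment of the translated coding sequences (Biopython 1.88). The motifs were chosen after the promoters had been read. Figures were made with matplotlib 3.10.9 (Python 3.11.15). One marker gene is not reported here, though its reads count in the list sums.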

Additional observations from a re-analysis of the deposited data

How the results depend on the processing

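Under the alternatives, 315 of 330 recomputed differences of the 7 members moved by less than the spread between replicates, 15 moved further, and 326 kept their sign. The 4 others were pDC to cDC1 differences, of Ms4a4b or Ms4a6c, in which the libraries overlap. Among them, the Ms4a4b difference without pDC replicate 1 rounded to 0.0 and shows no sign. For Ms4a1, leaving out libraries gave log2 fold changes from -5.66 to -5.23 for pDC against cDC1, from -4.95 to -4.53 for pDC against cDC2 and from -0.81 to -0.66 for cDC2 against cDC1. The lowest and highest values came without pDC replicates 3 and 1 in the comparisons with pDC. With the replicate block, Ms4a1 stood at -5.45, -4.74 and -0.71 in these comparisons, and no count of called genes in the other lists moved by more than 1.5 times. Over all alternatives, these counts were 2 to 4 (other family genes), 6 to 9 (neighbours) and 9 (partners) for pDC against cDC1, 2, 5 to 8 and 9 to 10 for pDC against cDC2, and 2 to 3, 6 to 9 and 7 to 9 for cDC2 against cDC1. Chosen after the data were seen, other scalings and left-out libraries gave 2 to 3 members without overlap between pDC and cDC1 and 7 in each of the other comparisons. The filter of at least 10 counts in every library left out Ms4a6d and Ms4a7. Depth limits the pDC values of these genes and of Ms4a1, which rest on 1 to 40 reads per library.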

Other observations

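AW112010, a long RNA gene that GENCODE M21 annotates as non-coding inside the MS4A cluster (chr19:11047612-11055808, minus strand), was outside the gene lists and was chosen after its values were seen. It stood at 189, 114 and 136 CPM in cDC1, 118, 90.4 and 137 in cDC2 and 18.0, 8.82 and 23.9 in pDC. The conventional subsets overlapped and pDC lay below both. Because of this choice, its differences are given without a test. AW112010 was lower in pDC than in cDC1 (log2 fold change -3.12, SE 0.349) and than in cDC2 (-2.77, SE 0.345). Between cDC2 and cDC1 the log2 fold change was -0.35 (SE 0.319). The family genes listed as 1700017D01Rik (Ms4a20 in RefSeq) and 1700025F22Rik (Ms4a19) had no reads, apart from 3 of the former in cDC2 replicate 3.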
